A study of Mus musculus with 12 samples.

Results

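The genes described here encode the subunits of the proteasome together with its activators, its inhibitor and the chaperones that assemble it. They were chosen by name: protein-coding mouse genes whose symbol begins with Psma, Psmb, Psmc, Psmd, Psme, Psmf or Psmg and goes on with a digit, with 4 pseudogenes of matching symbol left out. This rule used no measured value and found 50 of the 41388 gene identifiers in the count files. Of these 50 genes, 46 passed the filter on low counts and were among the 13364 genes tested. Psma8, Psmb8, Psmb11 and Psme2b did not pass. One gene that the name rule takes in, Psmc3ip, encodes a DNA recombination factor and no proteasome subunit, and its values are given apart from the subunits.

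The RNA came from the cortex and the hippocampus of C57/Bl6 mice, taken on postnatal day 21. All groups came from Aldh1L1::RPL10a-eGFP mice, in which the Aldh1l1 promoter, active in astrocytes, drives Rpl10a, a protein of the ribosome, joined to a green fluorescent protein. Translating ribosome affinity purification (TRAP) pulls tagged ribosomes and their bound messages out of a lysate with an antibody against the tag. There were 4 groups of 3 libraries: whole tissue before purification (cortex input, CtxPre), its immunoprecipitate (cortex TRAP, CtxTRAP), a synaptoneurosome fraction before purification (synaptoneurosome input, PAPpre) and the immunoprecipitate from that fraction (PAP TRAP, PAPTRAP, for peripheral astrocyte process). All groups share the treatment named in the labels, cycloheximide at 1 ug/mL and TTX at 1 mM. Synaptoneurosomes are pinched-off synapses that keep some of the surrounding processes. The labels give every sample the same extract protocol and do not say whether replicates came from separate animals, so p-values measure the spread between these libraries, which may be technical.

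The proteasome is the main protease of the cytosol and nucleus for proteins tagged with ubiquitin. Its core particle is a barrel of stacked rings, with alpha subunits as the outer gates and beta subunits inside. Of the beta subunits, Psmb5, Psmb6 and Psmb7 carry the active sites, and the interferon-induced Psmb8, Psmb9 and Psmb10 can take their places in the immunoproteasome. The regulatory particle caps the barrel. Its base holds a ring of ATPases (Psmc genes) that unfold substrates and the scaffold subunits Psmd1 and Psmd2, and its lid holds Psmd14, the enzyme that cuts ubiquitin chains off incoming proteins. The transcription factor Nfe2l1 raises many subunit genes together when proteasome activity is short, through antioxidant response elements in their promoters.

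Promoter sequences of members were searched for that element, because shared control of subunit genes is known to act there. RefSeq promoter windows (GRCm38.p6, from 250 bases before to 50 bases after each start) matched 42 of the 50 members by symbol. Psma8, Psmb1, Psmb2, Psmb7, Psmc3, Psmd3, Psmd7 and Psmg2 had no window and were not searched. The core of the antioxidant response element, searched as TGACNNNGC on both strands, was found in 6 of these 42 windows (14.3%) and in 13.99% of the 27025 genes with a window. The letters CCAAT, the box that the factor NF-Y binds, stood in 15 members (35.7%) against 41.1% of all genes. A core of the interferon response element, searched as GAAA and GAAA with any 2 bases between them, stood in 5 members (11.9%) against 3.99% of all genes. These were Psmb3, Psmd4, Psmd9, Psme1 and Psmg4. The interferon-induced Psmb8, Psmb9, Psmb10 and Psme2 had no match. A match describes letters in this window and no tested site. The 150 bases before the start of 4 members are shown: the catalytic subunits Psmb5 and Psmb6 and the chaperone Psmd9, with the TGACNNNGC match in capitals, and Psmd2, which has no such match and was called higher where other members fell. They lie at chr14:54617996-54618145 (Psmb5, minus strand), chr11:70525207-70525356 (Psmb6, plus strand), chr5:123228040-123228189 (Psmd9, plus strand) and chr16:20651502-20651651 (Psmd2, plus strand). The first capital lies at base -47 from the start in Psmb5, at -9 in Psmb6 and at -31 in Psmd9.
Psmb5: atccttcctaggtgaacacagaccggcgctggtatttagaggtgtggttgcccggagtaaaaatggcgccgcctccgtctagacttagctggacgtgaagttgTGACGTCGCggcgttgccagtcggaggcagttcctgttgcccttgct
Psmb6: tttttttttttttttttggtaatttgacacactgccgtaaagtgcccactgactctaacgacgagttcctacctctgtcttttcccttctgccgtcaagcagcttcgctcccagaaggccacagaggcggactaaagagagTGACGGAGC
Psmd9: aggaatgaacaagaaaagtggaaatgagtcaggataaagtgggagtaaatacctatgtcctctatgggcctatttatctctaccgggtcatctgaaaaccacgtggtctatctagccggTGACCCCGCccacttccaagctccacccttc
Psmd2: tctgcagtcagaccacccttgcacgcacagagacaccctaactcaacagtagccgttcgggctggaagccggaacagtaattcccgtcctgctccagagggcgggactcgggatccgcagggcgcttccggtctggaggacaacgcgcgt

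Libraries held 4918113 to 17553985 gene counts. Mitochondrial genes took 44.8% to 50.2% of these in cortex input and 1.03% to 1.28% in cortex TRAP. They took 83.8% to 91.9% in the synaptoneurosome input and 35.6% to 47.6% in PAP TRAP. Counts of nuclear genes, which set the precision for these members, were 5201429 to 6278525 in cortex input, 4864787 to 7777763 in cortex TRAP, 1423296 to 2476076 in the synaptoneurosome input and 5595315 to 6786096 in PAP TRAP. The median member had 190 to 210 counts per library in the cortex input, 170.5 to 321 in cortex TRAP, 28.5 to 53.5 in the synaptoneurosome input and 78.5 to 98.5 in PAP TRAP. All 8 astrocyte markers rose in cortex TRAP over cortex input and all 8 neuron markers fell. The summed astrocyte marker share of nuclear counts was 0.773% to 0.857% in cortex input, 6.68% to 9.83% in cortex TRAP, 3.96% to 4.77% in the synaptoneurosome input and 4.75% to 9.32% in PAP TRAP. Neuron markers held 1.63% to 1.83%, 0.186% to 0.292%, 0.978% to 1.38% and 0.373% to 0.539% in the same order of groups. Although these summed shares overlapped between PAP TRAP and cortex TRAP, 7 of 8 astrocyte markers were called lower in PAP TRAP, with a median log2 change of -1.31 over the 8. The exception was the glutamate transporter Slc1a2, the most abundant of them, with 22976.5 ± 5632.4 normalized CPM (SD, n = 3) in cortex TRAP and 29400.2 ± 9812.18 in PAP TRAP (log2 0.36 ± 0.24, not called). In the same comparison, markers of other cell types were higher in PAP TRAP (7 of 8 neuron, 4 of 6 oligodendrocyte, 6 of 8 microglia and 2 of 3 tested endothelial markers called), while the endothelial markers Cldn5 and Ly6c1 were at 0 in all PAP TRAP libraries. Oligodendrocyte markers held 0.0581% to 0.0860% of nuclear counts in cortex TRAP and 0.779% to 1.03% in PAP TRAP, and microglia markers 0.00233% to 0.00543% and 0.0275% to 0.0385%. The part of these cell types in the proteasome values was not tested. In such bulk samples, fewer cells of a type and less RNA per cell cannot be told apart.

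Proteasome messages held their smallest share of nuclear counts in PAP TRAP. All 50 genes together held 0.190% ± 0.00663 (SD, n = 3) of nuclear counts in the cortex input, 0.232% ± 0.0283 in cortex TRAP, 0.123% ± 0.00855 in the synaptoneurosome input and 0.0901% ± 0.00657 in PAP TRAP. The 4 groups did not overlap in this share. The core particle held 0.0532% ± 0.00618 in cortex input, 0.0991% ± 0.0321 in cortex TRAP, 0.0315% ± 0.00412 in the synaptoneurosome input and 0.0249% ± 0.00375 in PAP TRAP. Cortex TRAP replicate 1, at 0.136%, stood above replicates 2 and 3, at 0.0789% and 0.0822%. Without Psmb2, left out after the data had been seen, the 3 libraries held 0.0708%, 0.0640% and 0.0653%, and the core particle means were 0.0475%, 0.0667%, 0.0288% and 0.0208% in the same order of groups. The regulatory particle held similar shares in cortex input (0.0926% ± 0.00381) and cortex TRAP (0.0907% ± 0.00377), and less in synaptoneurosome input (0.0593% ± 0.00312) and PAP TRAP (0.0444% ± 0.00959). Between cortex input and cortex TRAP its libraries overlapped.

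**Figure D1:**
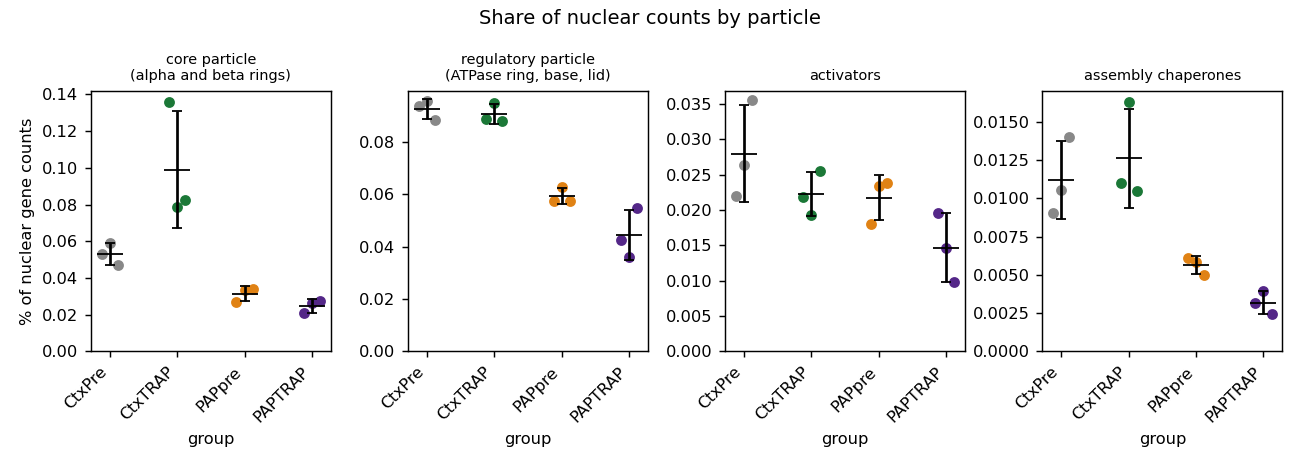
Share of nuclear gene counts (%) held by the core particle, the regulatory particle, the activators and the assembly chaperones in each library of the 4 groups; points are libraries, bars the mean and SD of 3. The core particle was highest in cortex TRAP (replicate 1 at 0.136%), while the regulatory particle held about the same share in cortex input and cortex TRAP and less in PAP TRAP.

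Proteasome messages were lower in PAP TRAP than in cortex TRAP, pull-downs that also differed in cell type markers and in mitochondrial share. In PAP TRAP against cortex TRAP, 16 of the 46 members tested fell and 1, Psmd2, rose (edgeR quasi-likelihood test, Benjamini-Hochberg adjusted p under 0.05 over all genes tested). That is 34.8% of members lower and 2.17% higher, against 14.6% of all tested genes lower, 19.3% higher and 33.9% in either direction. The log2 change was negative for 43 members and positive for 3, with a median of -1.31, where the median of all genes tested was -0.28 and that of the 8 astrocyte markers -1.31. The part of the astrocyte markers' fall in these values was not tested. Every PAP TRAP library lay below every cortex TRAP library for 31 members and above for 1, where the background is 26.1% and 22.2% of all genes. The members called lower were Psma1, Psma2, Psma4 and Psma7 of the alpha ring, Psmb1, Psmb2, Psmb4, Psmb6 and Psmb7 of the beta ring, Psmc5, Psmd4, Psmd6, Psmd7 and Psmd11 of the regulatory particle, and the chaperones Psmd9 and Psmg1. Of the 17 calls, 8 held when any of the 12 libraries was left out: Psma1, Psma2, Psma7, Psmb1, Psmb2, Psmb7, Psmd9 and Psmd11. Only 5 held in all 20 other settings: Psma2, Psmb1, Psmb2, Psmd9 and Psmd11. With offsets corrected for transcript length the members' median was -0.35, against -0.25 for all genes. Without cortex TRAP replicate 1 or replicate 2, 9 members were called lower, and with the compared groups fitted alone also 9.

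**Figure D2:**
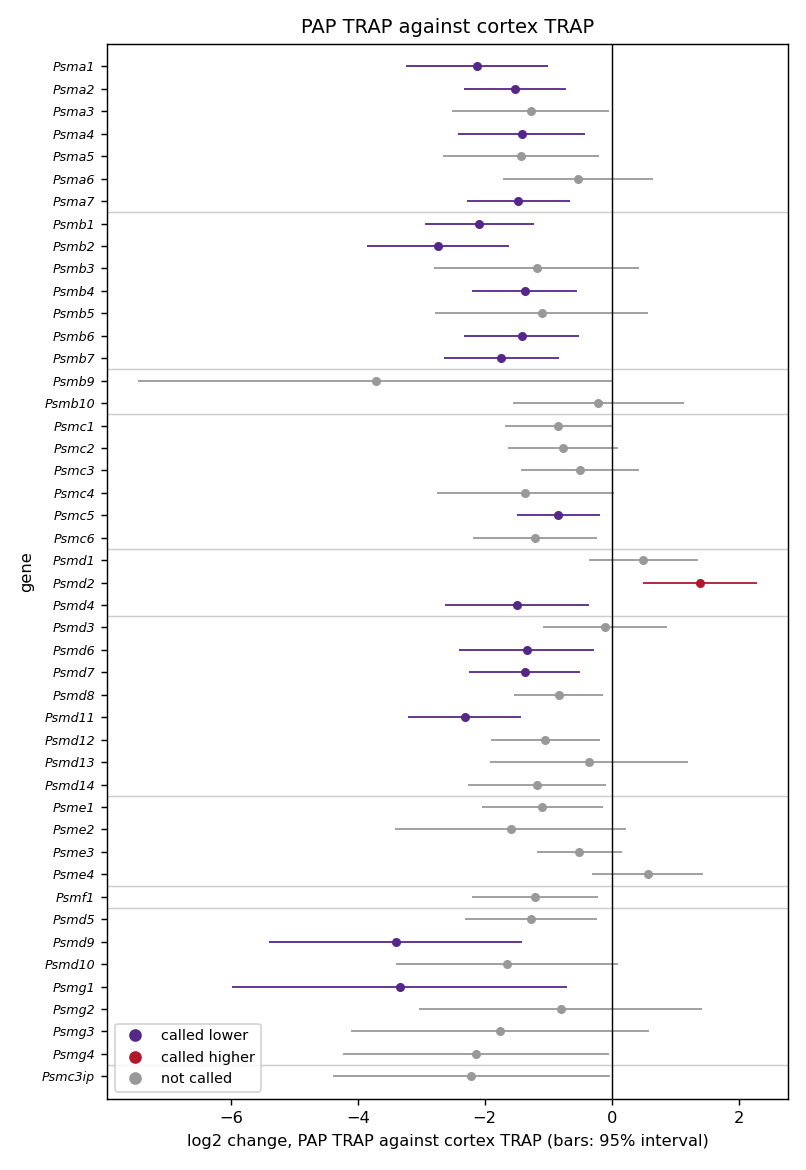
Log2 change of each of the 46 members tested in PAP TRAP against cortex TRAP, from the fit to all 12 libraries, with 95% intervals; grey lines separate the classes of subunits. Of the members, 16 were called lower (purple) and 1, Psmd2, higher (red), and 43 of 46 lay below 0.

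In cortex TRAP against cortex input, 2 members rose, Psmb2 and Psmb7, where 15.9% of all genes were called higher, 19.5% lower and 35.4% in either direction. No member was called lower by edgeR, with 2 members lower at an unadjusted p under 0.05 and 1 called lower by DESeq2. The change was positive for 38 of 46 members, with a median log2 change of 0.48 against 0.05 for all genes tested. In 18 members every cortex TRAP library lay above every cortex input library and in 1, Psmd2, below, against 27.4% and 27.8% of all genes. DESeq2 called 9 members higher, and the fit of the compared groups alone called 10. With offsets corrected for transcript length the median turned to -0.087, with 22 members positive and 24 negative, and 1 was called higher. This comparison and the preceding one share the 3 cortex TRAP libraries, so they are not independent.

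Within the synaptoneurosome fraction few members were called, as were few of all genes. In PAP TRAP against synaptoneurosome input, 1 member fell, Psmb9, and edgeR called none higher, where 1.53% of all genes were called lower, 3.0% higher and 4.53% in either direction. No member was higher at an unadjusted p under 0.05 and DESeq2 called 0 higher. The median log2 change was -0.17 over members and 0.06 over all genes. PAP TRAP lay below its input in every library for 5 members (Psma1, Psmb9, Psmc1, Psmc5 and Psme2) and above it for 0, against 9.39% and 12.2% of all genes. These comparisons rest on the shallowest libraries.

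Between the 2 inputs, 1 member, again Psmb9, was called higher in synaptoneurosome input than in cortex input. Over all genes 7.26% were called higher, 2.07% lower and 9.32% in either direction. EdgeR called no member lower, with 3 lower at an unadjusted p under 0.05 and 0 by DESeq2. The change was negative for 38 of 46 members, with a median log2 change of -0.27 against -0.14 for all genes. Synaptoneurosome input lay below cortex input in every library for 12 members and above for 1, Psme2, against 20.1% and 16.4% of all genes.

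The difference of both enrichments over input, an interaction term that sets PAP TRAP over its input against cortex TRAP over its input, was negative for 39 of 46 members. Its median was -0.73 on the log2 scale over members and 0.03 over all genes. It was called lower for 2 members, Psmb7 and Psmb9, where 7.32% of all genes were called lower, 12.9% higher and 20.2% in either direction. No member was called higher by edgeR or DESeq2, and 1 was higher at an unadjusted p under 0.05. Neither call held in every setting that left out a library. By the same term all 8 astrocyte markers were called lower (median -3.12) and 7 of 8 neuron markers higher (median 2.59). The part of these cell types in the members' difference was not tested.

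**Figure D3:**
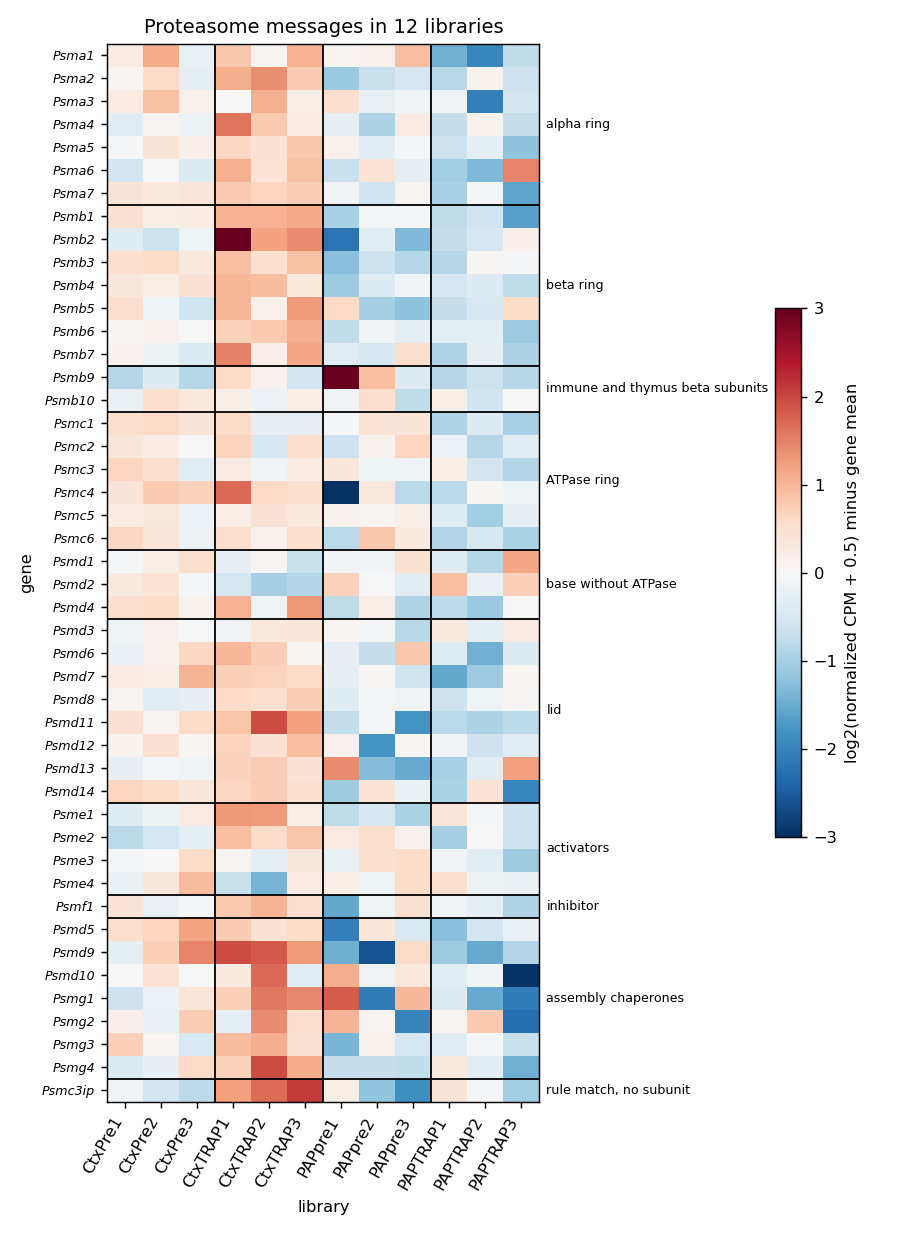
Level of each of the 46 members tested in 12 libraries, as log2(normalized CPM + 0.5) minus the gene's mean over all libraries, with genes ordered by class; red is above and blue below the mean, on a scale limited to ±3. PAP TRAP columns are mostly blue and cortex TRAP columns mostly red; Psmb2 in CtxTRAP1, Psmb9 in PAPpre1 and, downward, Psmc4 in PAPpre1 exceed the scale.

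The alpha ring forms the gate of the core particle. Of its 7 tested members, 4 fell in PAP TRAP against cortex TRAP (57.1%, against 14.6% of all genes). The median log2 change was -1.43 over the ring. Psma1 had 16.9, 10.03 and 20.02 normalized CPM (read counts scaled to a common library size with TMM factors) in cortex TRAP replicates 1 to 3 and 3.16, 2.07 and 5.52 in PAP TRAP. The groups did not overlap, and the fall was 4.36-fold (95% interval 2.01 to 9.46, edgeR adjusted p = 0.00467). Against synaptoneurosome input Psma1 gave a log2 change of -1.86 ± 0.54 (SE), with an edgeR adjusted p of 0.0537. Psma2 (-1.53 ± 0.38), Psma7 (-1.47 ± 0.39) and Psma4 (-1.42 ± 0.48) also fell against cortex TRAP. Of the ring's calls, that of Psma2 alone stood with offsets corrected for transcript length. The Psma4 call was lost in 8 of 20 other settings. Psma6 had 36.3, 22.8 and 31.9 normalized CPM in cortex TRAP and 8.07, 6.53 and 48.3 in PAP TRAP. Its PAP TRAP replicate 3, with 622 counts against 92 and 79, stood above all cortex TRAP libraries, so the groups overlapped. Psma3 (-1.28 ± 0.59) and Psma5 (-1.43 ± 0.59) were not called. Psma8, a testis form of an alpha subunit, had 6 counts in PAP TRAP replicate 2 and 0 in the other libraries.

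The beta ring held the largest number of calls of any class, 5 of 7 tested members lower in PAP TRAP than in cortex TRAP. That is 71.4%, against 14.6% of all genes (median log2 change of the ring -1.42). With offsets corrected for transcript length, Psmb1 and Psmb2 kept their calls and Psmb4, Psmb6 and Psmb7 lost them. Psmb2, a structural beta subunit (GRCm38 chr4:126677630-126709714, plus strand), had 19.9, 16.5 and 23.8 normalized CPM in cortex input and 288, 60.4 and 69.9 in cortex TRAP. It had 5.17, 20.6 and 10.04 in synaptoneurosome input and 15.6, 18.1 and 28.7 in PAP TRAP. All cortex TRAP libraries stood above all others, with replicate 1 at 5084 counts far above replicates 2 and 3 at 728 and 1169. Psmb2 rose 6.95-fold in cortex TRAP over cortex input (log2 2.80 ± 0.54, edgeR adjusted p = 0.000384) and was 6.69-fold lower in PAP TRAP than in cortex TRAP (log2 -2.74 ± 0.54, adjusted p = 0.00059). Without cortex TRAP replicate 1 both calls stood, with smaller log2 changes of 1.57 (adjusted p = 0.00999) and -1.52 (adjusted p = 0.015).

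Psmb1, a structural subunit (GRCm38 chr17:15475021-15499751, minus strand), had closely spaced values in cortex TRAP and a wider spread in PAP TRAP. It had 19.6, 16.3 and 16.5 normalized CPM in cortex input, 29.7, 29.6 and 31.7 in cortex TRAP, 6.99, 13.4 and 13.5 in the synaptoneurosome input, and 8.16, 9.09 and 4.20 in PAP TRAP. Cortex TRAP lay above both inputs and PAP TRAP. The fall from cortex TRAP to PAP TRAP was 4.24-fold (95% interval 2.34 to 7.70, edgeR adjusted p = 0.000639), while cortex TRAP over cortex input gave a log2 change of 0.80 ± 0.39 that was not called (adjusted p = 0.127). Psmb4 also fell in PAP TRAP (-1.37 ± 0.39). Psmb3 gave -1.18 ± 0.77 and was not called.

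Of the catalytic subunits, 2 were called and the third, Psmb5, was not. With offsets corrected for transcript length, neither of the 2 was called in PAP TRAP against cortex TRAP. Psmb6 then gave -0.26 (edgeR adjusted p = 0.683) and Psmb7 -0.62 (edgeR adjusted p = 0.275). Psmb6, the caspase-like subunit, had 10.7, 11.4 and 10.6 normalized CPM in cortex input, 17.05, 18.2 and 22.6 in cortex TRAP, 6.08, 9.85 and 8.49 in the synaptoneurosome input and 8.51, 8.43 and 4.66 in PAP TRAP. It fell 2.67-fold from cortex TRAP to PAP TRAP (edgeR adjusted p = 0.0165) and was not called over cortex input (log2 0.82 ± 0.43, adjusted p = 0.145). The Psmb6 fall was not called in 6 of 20 other settings. Psmb7, the trypsin-like subunit, had 16.8, 14.1 and 11.6 in cortex input, 44.7, 17.2 and 35.6 in cortex TRAP, 12.5, 11.05 and 22.6 in the synaptoneurosome input and 8.16, 13.1 and 7.93 in PAP TRAP. Cortex TRAP replicate 2 sat close to the highest cortex input library. Psmb7 rose 2.30-fold in cortex TRAP over input (log2 1.20 ± 0.43, edgeR adjusted p = 0.0344) and was 3.34-fold lower in PAP TRAP than in cortex TRAP (adjusted p = 0.00456). Its difference of enrichments was -1.87 ± 0.61 (edgeR adjusted p = 0.0354). The rise over cortex input was lost without any 1 of the cortex input libraries, or without cortex TRAP replicate 1 or 3 (adjusted p 0.0916 to 0.241). Psmb5, the chymotrypsin-like subunit, was the lowest of the catalytic trio per length, with 3.20 CPM per kb of exon in cortex input, 6.31 in cortex TRAP, 2.49 in the synaptoneurosome input and 2.93 in PAP TRAP. Psmb7 stood at 12.2, 28.0, 13.2 and 8.40 CPM per kb in these groups and Psmb6 at 13.6, 24.1, 10.2 and 9.02. Psmb5 had 6.23, 3.15 and 7.65 normalized CPM in cortex TRAP and 1.58, 1.90 and 4.43 in PAP TRAP, which overlapped (log2 -1.10 ± 0.80).

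**Figure D4:**
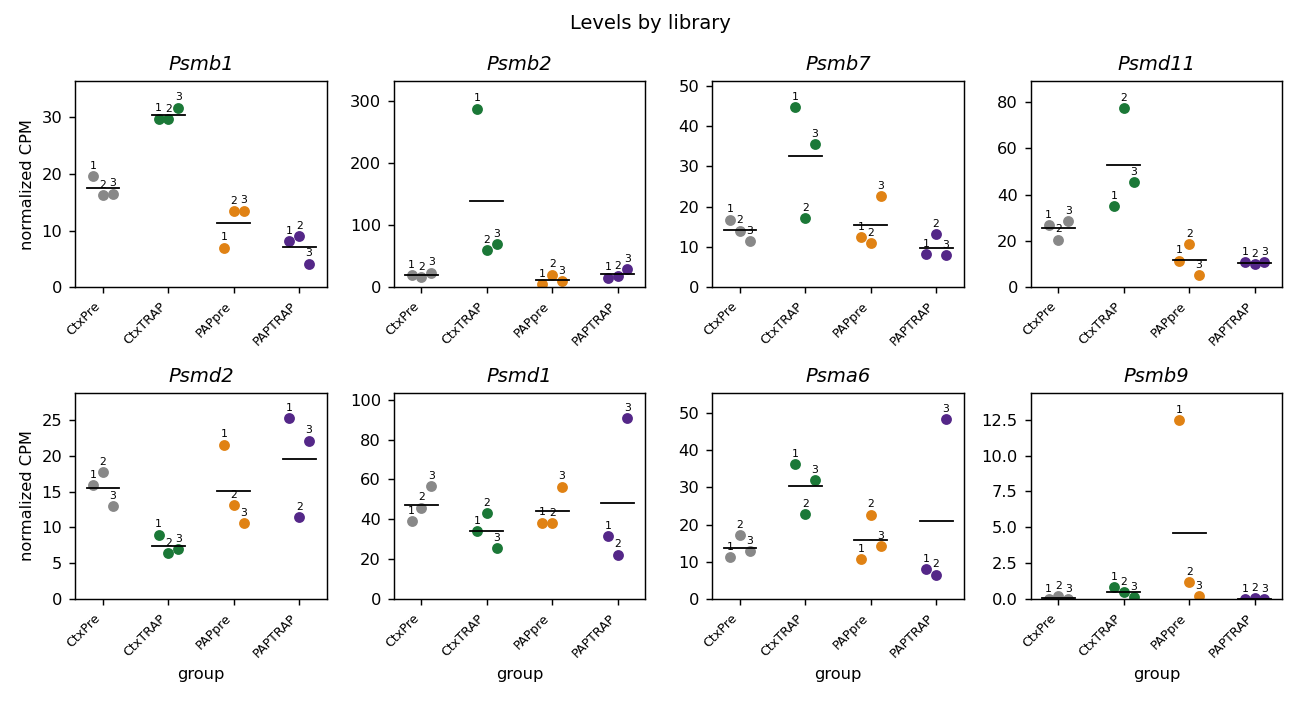
Normalized CPM of 8 members in each of 12 libraries; points are libraries numbered by replicate and lines are group means, each panel with its own axis from 0. Psmb1 and Psmd11 were lower in every PAP TRAP library than in every cortex TRAP library and Psmd2 was higher; single libraries carry the means of Psmb2 (CtxTRAP 1), Psmb9 (PAPpre 1), and Psma6 and Psmd1 (PAPTRAP 3).

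Immunoproteasome subunits were near the floor of detection, apart from Psmb10. Psmb10 had 3.5999, 6.31 and 5.502 normalized CPM in cortex input, 4.93, 3.73 and 5.02 in cortex TRAP, 3.95, 6.27 and 2.32 in the synaptoneurosome input and 4.91, 2.64 and 4.27 in PAP TRAP. All groups overlapped, and PAP TRAP against cortex TRAP gave a log2 change of -0.21 ± 0.64, with a 95% interval of -1.55 to 1.13. Psmb8 had 8, 8 and 0 counts in the cortex input, 0, 9 and 5 in cortex TRAP, 1, 2 and 2 in the synaptoneurosome input and 4, 2 and 0 in PAP TRAP, and was not tested. Psmb11, the thymus form, had at most 3 counts in any library. Psmb9 had 0, 3 and 0 counts in the cortex input, 15, 6 and 2 in cortex TRAP, 41, 4 and 1 in the synaptoneurosome input and 0, 1 and 0 in PAP TRAP. A single library, synaptoneurosome input replicate 1, held 41 of its counts. Its called changes (log2 5.95 ± 1.76 in synaptoneurosome input over cortex input, -6.92 ± 1.92 in PAP TRAP against synaptoneurosome input, and -9.67 ± 2.49 for the difference of enrichments) rest on that library and depend on the prior count, so they are no bound on the fold. Without it they were 3.21 (edgeR adjusted p = 0.338), -4.18 (adjusted p = 0.276) and -6.92 (adjusted p = 0.0733). Without cortex input replicate 2 the change between inputs was 8.75 (adjusted p = 0.0534), and 5.405 and 5.432 without replicates 1 and 3 (adjusted p = 0.161 and 0.162). The call in PAP TRAP against its own input also ended without any cortex input or PAP TRAP library, or without synaptoneurosome input replicate 2 (adjusted p 0.0575 to 0.131). Microglia, a cell type that expresses immunoproteasome genes, had their highest marker share in the same library, 0.133% of nuclear counts against 0.0901% and 0.0615% in synaptoneurosome inputs 2 and 3. All 8 microglia markers had a higher normalized CPM there than in every cortex input library, and 7 of the 8 did so in every synaptoneurosome input library. The part of these markers in the Psmb9 value was not tested.

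The 6 members of the ATPase ring had a median log2 change of -0.84 in PAP TRAP against cortex TRAP, and 1 of them, Psmc5, fell (log2 -0.84 ± 0.31, edgeR adjusted p = 0.0439). That is 16.7% of the ring, near the 14.6% of all genes called lower. Psmc5 was the ring's most abundant message per length in all 4 groups, at 23.3 CPM per kb in cortex input, 26.5 in cortex TRAP, 23.3 in the synaptoneurosome input and 14.8 in PAP TRAP. Its call was lost under most other settings, and its direction turned with length-corrected offsets (log2 0.26, adjusted p = 0.579). The other ring members gave -0.51 (Psmc3) to -1.36 (Psmc4) and were not called. Psmc4 also had the lowest single value of the ring, 0.304 normalized CPM in synaptoneurosome input replicate 1 against 8.96 and 3.86 in replicates 2 and 3.

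The scaffold subunit Psmd2 of the base was the only member called higher in PAP TRAP than in cortex TRAP. Psmd2 (GRCm38 chr16:20651652-20663414, plus strand) had 16.0, 17.7 and 13.0 normalized CPM in cortex input and 9.01, 6.39 and 6.93 in cortex TRAP. It had 21.6, 13.1 and 10.6 in synaptoneurosome input and 25.3, 11.4 and 22.1 in PAP TRAP. Every PAP TRAP library and every input library lay above every cortex TRAP library. Psmd2 was 2.63-fold higher in PAP TRAP than in cortex TRAP (95% interval 1.41 to 4.91, edgeR adjusted p = 0.0175), and gave a log2 change of -1.06 ± 0.43 in cortex TRAP against cortex input that was not called (adjusted p = 0.0606). Without PAP TRAP replicate 1 the rise was not called (log2 1.18, adjusted p = 0.0798). Its difference of enrichments was 1.44 ± 0.61 (adjusted p = 0.103). Psmd1, the other large scaffold, had 34.1, 43.1 and 25.5 normalized CPM in cortex TRAP and 31.6, 22.2 and 90.7 in PAP TRAP (log2 0.49 ± 0.41, not called), where replicate 3 with 1167 counts stood above replicates 1 and 2 with 360 and 269. Psmd4, a ubiquitin receptor of the base, had 17.05, 7.38 and 20.5 normalized CPM in cortex TRAP and 4.48, 3.47 and 8.003 in PAP TRAP. It was called lower (log2 -1.49 ± 0.54, adjusted p = 0.0409) although PAP TRAP replicate 3 lay above cortex TRAP replicate 2. The Psmd4 call was lost in 13 of 20 other settings.

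In the lid, 3 of 8 members fell in PAP TRAP against cortex TRAP (37.5%, against 14.6% of all genes). All 8 changes were negative (median log2 -1.11). Psmd11, a lid scaffold (GRCm38 chr11:80428615-80473248, plus strand), had the smallest p of any member in this comparison. It had 27.0, 20.6 and 28.7 normalized CPM in cortex input, 35.1, 77.4 and 45.4 in cortex TRAP, 11.5, 18.8 and 5.21 in the synaptoneurosome input, and 10.9, 9.92 and 10.9 in PAP TRAP. Cortex TRAP stood above all other libraries and the fractions of the synaptoneurosome below all cortex libraries. Psmd11 was 4.98-fold lower in PAP TRAP than in cortex TRAP (95% interval 2.68 to 9.24, edgeR adjusted p = 0.000332). In cortex TRAP over cortex input it gave a log2 change of 1.05 ± 0.41 (adjusted p = 0.0525), which was not called. Psmd7 (-1.37 ± 0.42) and Psmd6 (-1.34 ± 0.51) were the other lid members that fell. The Psmd6 call was lost in 17 of 20 other settings and the Psmd7 call in 6.

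Psmd14, the deubiquitinase of the lid, had 22.2, 20.6 and 17.7 normalized CPM in cortex input, 21.8, 23.5 and 19.6 in cortex TRAP, 6.38, 18.5 and 12.2 in the synaptoneurosome input and 6.93, 18.6 and 3.19 in PAP TRAP. The cortex groups lay close together, and PAP TRAP replicate 2 was nearest to them. Its change in PAP TRAP against cortex TRAP was -1.18 ± 0.52 (edgeR adjusted p = 0.0886). With the replicate number as a block it was called (-1.405, adjusted p = 0.0334), and without PAP TRAP replicate 2 it was -2.09 (adjusted p = 0.00497). Astrocyte markers were also highest in that library, at 9.32% of nuclear counts against 4.75% and 6.21% in PAP TRAP replicates 1 and 3, and their part in the Psmd14 value was not tested. The other lid members, Psmd3, Psmd8, Psmd12 and Psmd13, gave log2 changes of -0.10 to -1.05 and were not called.

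Activators open the core particle without the regulatory particle. None of the 4 tested was called in PAP TRAP against cortex TRAP by edgeR, with 1 at an unadjusted p under 0.05, while DESeq2 called Psme1 and Psme2 lower. Psme3, the nuclear activator, was the most abundant of them per length in every group but cortex TRAP, where Psme1 stood at 19.6 CPM per kb. Psme3 had 20.3 CPM per kb in cortex input, 18.6 in cortex TRAP, 21.9 in the synaptoneurosome input and 13.0 in PAP TRAP. Its normalized CPM were 45.6, 47.6 and 68.8 in cortex input, 50.1, 39.1 and 59.3 in cortex TRAP, 40.4, 65.7 and 68.9 in the synaptoneurosome input, and 44.7, 37.3 and 22.3 in PAP TRAP, where all PAP TRAP libraries lay below all cortex input libraries and the other groups overlapped. Psme1 had 8.20, 9.57 and 12.7 in cortex input, 26.7, 26.5 and 12.1 in cortex TRAP, 6.08, 7.46 and 5.21 in the synaptoneurosome input and 13.7, 10.2 and 6.68 in PAP TRAP. Its interferon-induced partner Psme2 had 0.775, 1.06 and 1.34 in cortex input, 3.68, 2.82 and 3.47 in cortex TRAP, 2.13, 2.69 and 1.93 in the synaptoneurosome input and 0.614, 1.74 and 0.932 in PAP TRAP. Psme2 thus lay higher in each cortex TRAP library than in any other library, and gave -1.59 ± 0.87 in PAP TRAP against cortex TRAP (adjusted p = 0.166). Psme4 had 21.9, 32.4 and 48.6 in cortex input, 15.8, 9.37 and 30.1 in cortex TRAP, 28.9, 23.3 and 37.3 in the synaptoneurosome input, and 36.8, 23.0 and 22.1 in PAP TRAP. It was 1 of the 3 members with a positive change against cortex TRAP (0.56 ± 0.42, not called). Without cortex TRAP replicate 3, Psme4 was called higher there (log2 1.254, edgeR adjusted p = 0.0355). Psme2b had at most 8 counts in any library and was not tested.

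The inhibitor Psmf1, which binds the core particle, had 16.6, 10.6 and 12.2 normalized CPM in cortex input, 21.9, 25.8 and 17.8 in cortex TRAP, 3.95, 11.6 and 17.2 in the synaptoneurosome input and 11.6, 10.3 and 6.45 in PAP TRAP. PAP TRAP lay below cortex TRAP in all libraries, with a log2 change of -1.21 ± 0.48 (edgeR adjusted p = 0.0568). Assembly chaperones build the rings and do not stay in the finished particle. Of 7, 2 fell in PAP TRAP against cortex TRAP (28.6%, against 14.6% of all genes). All 7 changes were negative (median log2 -1.76). Psmd9, which helps assemble the base, had 9.65 ± 2.41 normalized CPM (SD, n = 3) in cortex TRAP and 0.903 ± 0.298 in PAP TRAP (log2 -3.40 ± 0.95, edgeR adjusted p = 0.00978). Psmg1, a chaperone of the alpha ring, had 4.74 ± 1.53 and 0.463 ± 0.600 (log2 -3.34 ± 1.26, edgeR adjusted p = 0.0477). The Psmg1 call was lost in 15 of 20 other settings. The other base chaperones Psmd5 (-1.27 ± 0.50) and Psmd10 (-1.65 ± 0.84), and Psmg2, Psmg3 and Psmg4 (-0.81 to -2.14), were not called. Psmc3ip, no subunit, gave 2.70 ± 1.06 in cortex TRAP against cortex input and -2.21 ± 1.04 in PAP TRAP against cortex TRAP, neither called.

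Change moved with message length, over all genes and over the members. The members tested are short, with a median union exon length of 1454.5 bp (all exons of a gene merged, GENCODE M21) against 3460 bp over all genes tested, while the median GC content was 49.8% in both. Across all genes with a length, the Spearman correlation between length and log2 change in PAP TRAP against cortex TRAP was 0.426, and across the 46 members it was 0.344. In cortex TRAP against cortex input the values were -0.305 and -0.529. These are descriptions across genes that share the same libraries, and genes are not replicates. Genes under 2000 bp had a median log2 change of -1.22 in PAP TRAP against cortex TRAP and the 30 members among them -1.40. Genes of at least 2000 bp had a median of 0.01 and the 16 members among them -1.13. In cortex TRAP against cortex input, short genes had a median of 0.88 and short members 0.60, and long genes -0.18 and long members 0.16.

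**Figure D5:**
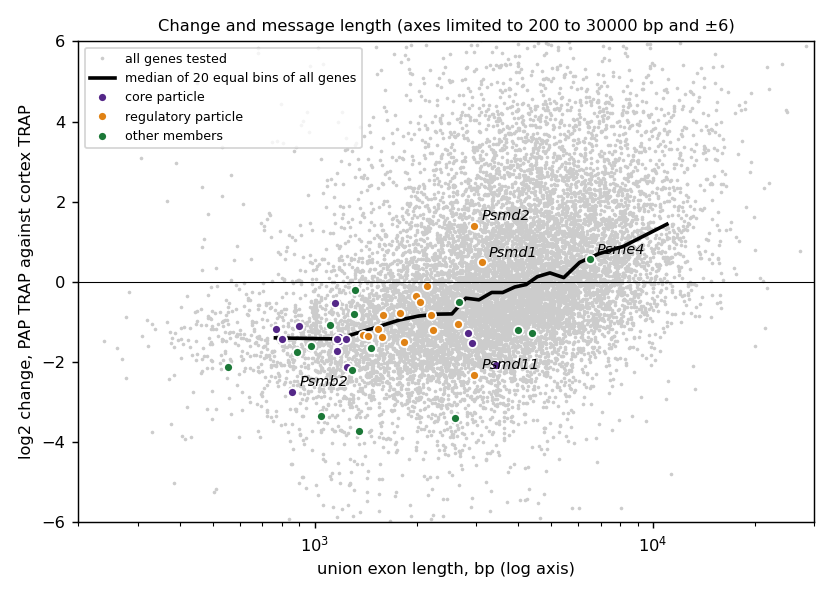
Log2 change in PAP TRAP against cortex TRAP by union exon length (bp, log axis) for all genes tested (grey) and for members (coloured by particle), with the median of 20 equal bins of all genes (black line). Short genes lie below 0 as a whole and long genes at or above it, and most members, Psmb2 and Psmd11 among them, lie on or below the line, with Psmd2 above it.

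With offsets corrected for transcript length, the difference from all other genes shrank. In PAP TRAP against cortex TRAP, 7 members were then called lower and 1 higher, where 13.5% of all genes were called lower and 15.4% higher. The members' median was -0.35 with 33 of 46 negative, against -0.25 for all genes, and the medians of the core and regulatory particles were -0.37 and -0.25. Psma2, Psmb1, Psmb2, Psmd9, Psmd11 and, upward, Psmd2 kept their calls, and Psmd5 and Psmf1 were gained as lower. In cortex TRAP against cortex input Psmb2 alone remained called higher. There the median of the core particle was -0.0069 and that of the regulatory particle -0.33, against 0.81 and 0.19 without the correction. The share of reads not uniquely placed was 29.9% to 32.5% in cortex TRAP and 21.3% to 29.3% in PAP TRAP, and such reads were not counted for genes. Members with near-identical pseudogene copies are therefore uncertain.

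Genes that work beside the named subunits moved in both directions. Of 11 further proteasome subunits and factors, 3 rose and 5 fell in PAP TRAP against cortex TRAP, where 19.3% of all genes were called higher and 14.6% lower. The transcription factor Nfe2l1, which raises subunit genes, rose (log2 1.29, edgeR adjusted p = 0.00127), as did Ipo9, an importin (1.89, adjusted p = 0.000227), and Ddi2, the protease that activates Nfe2l1 (1.92, adjusted p = 0.00216). Nfe2l2, the oxidative stress factor, fell by 1.82 on the log2 scale (adjusted p = 0.0013), and so did Txnl1, a thioredoxin-like protein of the regulatory particle (-1.82, adjusted p = 0.00159). In cortex TRAP against cortex input, 2 of the 11 rose (18.2%, near the 15.9% of all genes), Nfe2l2 (3.88, edgeR adjusted p = 6.98e-07) and the core chaperone Pomp (1.00, adjusted p = 0.0181). In the same comparison 3 fell, with Ipo9 (-1.77) and Ddi2 (-2.09) at the smallest p. Between the inputs, Nfe2l1 was higher in synaptoneurosome input (0.89) and Ddi2 lower (-1.57).

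Of the 5 tested genes for ubiquitin and its activating enzymes, Uba1, the main activating enzyme, rose in PAP TRAP against cortex TRAP (log2 0.77, edgeR adjusted p = 0.0219). Of 16 shuttle receptors and deubiquitinases, 1 rose and 7 fell in PAP TRAP against cortex TRAP. Over all genes, 19.3% were called higher and 14.6% lower there. Ubqln4 was higher (log2 2.08, edgeR adjusted p = 0.001), and Nsfl1c (-1.83) and Rad23b (-1.26) were lower. In cortex TRAP against cortex input 3 of the 16 fell (18.75%, near the 19.5% of all genes called lower), led by the neuronal hydrolase Uchl1 (-3.08, adjusted p = 7.18e-05) and the proteasome-bound deubiquitinase Usp14 (-1.30). Of 9 genes of class I antigen presentation, which uses peptides cut by the immunoproteasome, 3 rose in cortex TRAP over cortex input. That is 33.3%, against 15.9% of all genes, with B2m (1.66) and H2-K1 (3.96) among them. Of the same 9, 1, Tap2, fell in PAP TRAP against cortex TRAP (-4.08, edgeR adjusted p = 0.0445). That is 11.1%, below the 14.6% of all genes called lower. B2m was also higher in synaptoneurosome input than in cortex input (1.96). In PAP TRAP against its own input edgeR called 0 of these 41 genes, where 4.53% of all genes were called. Of the 41, 10 were at an unadjusted p under 0.05 and DESeq2 called 2.

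Members with and without the promoter match were found among both called and uncalled genes. Among members with a promoter window, TGACNNNGC stood in 2 of the 12 called lower in PAP TRAP against cortex TRAP (Psmb6 and Psmd9), in 4 of the 26 tested and not called, and in the window of neither Psmd2 nor the 3 members not tested. Psmb1, Psmb2, Psmb7 and Psmd7, also called lower there, had no window.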

How the data were processed

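The deposited values are whole numbers whose totals differ between libraries, and were taken as raw read counts per gene from the authors. Per the submitters' processing notes, the tools were Trimmomatic 0.32, Bowtie2, STAR and HTSeq, in unstated roles. The build and gene models of the counting, and whether it used strand, were not given in the sources used here. Per the labels' protocols, cDNA from 2 ng of RNA was amplified by SPIA without molecular identifiers, so counts are not independent molecules. Rows naming no gene (20.3% to 55.5% of counts) stayed out of library sizes and tests. Sample labels gave the groups. The members, gene lists, tests and the rule for named genes were chosen with earlier results of these data known. One model over all 12 libraries, with a mean for each of the 4 groups, was fitted with the quasi-likelihood functions of edgeR 4.0.16 in R 4.3.3 (TMM scaling, filterByExpr with minimum count 10 and minimum total 15). The p-values were adjusted by the Benjamini-Hochberg method over the 13364 genes tested, called at 0.05. Log2 changes carry their SE. The fit was also run on counts simulated from its own model, which cannot show that the model holds for the measured counts. Promoters came from RefSeq, lengths from GENCODE M21 (GRCm38) by gene identifier (99.4% of genes tested). Catalytic, immune, activator and inhibitor genes, Psmd2, Psmd4 and Psmd14 were named with values in each library, together with up to 4 called members per direction and comparison by smallest p, and other lists by up to 2 called genes per direction. Ddi2 in PAP TRAP against cortex TRAP, Psma6, Psma1, Psmd1, Psmc4 and Psme2b were named with single values after these had been seen. Alternatives were RLE scaling, no filter, DESeq2 1.42.0, compared groups alone, a replicate block, no mitochondrial genes, offsets corrected for length or GC content (loess span 0.3), and each library left out. One result of the pathway lists is not reported here.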

Additional observations from a re-analysis of the deposited data

Results flagged for a closer look

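Enrichment over input differed between the synaptoneurosome fraction and whole tissue, by the interaction term of the edgeR fit, for 2 members and 6 genes of the pathway lists. Psmb7 gave a log2 difference of -1.87 ± 0.61 (edgeR adjusted p = 0.0354), a call that ended with any 1 of 8 libraries left out (all cortex inputs, cortex TRAP 1 or 3, synaptoneurosome input 3, PAP TRAP 1 or 3), with the replicate block (-1.783, adjusted p = 0.0572) and with the length correction (-1.015, adjusted p = 0.268). Psmb9 gave -9.67 ± 2.49 (adjusted p = 0.00884), a value that rests on 41 counts in synaptoneurosome input replicate 1. Nfe2l2 gave -2.80 ± 0.55 (adjusted p = 0.00121) and B2m, the light chain of class I molecules, -2.24 ± 0.39 (adjusted p = 0.000382). The differences were positive for Ddi2 (3.50 ± 0.62, adjusted p = 0.000443), Ubqln4 (2.63 ± 0.60, adjusted p = 0.00367), Ipo9 (2.25 ± 0.46, adjusted p = 0.00171) and Uchl1 (1.97 ± 0.67, adjusted p = 0.0435). All 8 astrocyte markers were also called lower by this term and 7 of 8 neuron markers higher (medians -3.12 and 2.59). The part of these cell types in the differences was not tested.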

How the results depend on the processing

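Correcting offsets for transcript length gave 7 members lower in PAP TRAP against cortex TRAP with a median log2 change of -0.35, turned Psmc5 there to 0.26, turned the median of cortex TRAP against cortex input to -0.087 with 1 higher and 2 lower, and gave 1 lower and a median of -0.17 for the difference of enrichments. DESeq2 called 26 lower in PAP TRAP against cortex TRAP, 9 higher and 1 lower in cortex TRAP against cortex input, 3 lower in PAP TRAP against its input, and 7 lower for the difference. The compared groups alone gave 9 lower, 10 higher and 1 lower, and 0 lower in these 3 comparisons, and 0 higher between inputs. Correcting for GC content gave 5 higher and 1 lower in cortex TRAP against cortex input and 0 lower in PAP TRAP against its input. RLE scaling and no filter each gave 2 lower in the latter, and no filter 4 lower for the difference. The cause of these moves was not tested.

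With the replicate number as a block, 4 members were higher in cortex TRAP against cortex input, 0 lower in PAP TRAP against its input, 0 higher between inputs and 1 lower for the difference. In PAP TRAP against cortex TRAP the block called 17 members, 15 of them shared with the 17 of the unblocked fit. Whether the numbers pair the samples is not settled. Same-numbered libraries correlated at 0.00575 to 0.0804 in their deviations from group means, all under 0.1. Libraries of different number correlated at -0.0697 to 0.0551. When each library was set against each other group, the best match had its own number in 32 of 36 cases. For 8 of 12 libraries this held in every other group, a hint from the data and not the design.

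With each library left out in turn, counts ranged from 1 to 4 higher and 0 to 1 lower in cortex TRAP against cortex input (median 0.30 to 0.60), from 0 to 0 higher and 0 to 2 lower in PAP TRAP against its input (median -0.32 to -0.17 at 2 decimals), from 0 to 2 higher and 9 to 16 lower in PAP TRAP against cortex TRAP (median -1.38 to -1.05), from 0 to 1 higher and 0 to 2 lower between inputs (median -0.39 to -0.20), and from 0 to 1 higher and 1 to 4 lower for the difference (median -0.89 to -0.62). Leaving out mitochondrial genes moved the median of all genes in PAP TRAP against cortex TRAP from -0.28 to -0.12 and that of the members to -1.17, and in PAP TRAP against its input from 0.06 to 0.18 and that of the members to -0.04. At 28.5 to 53.5 counts per median member, synaptoneurosome input limits what these comparisons can show.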
